A study of Mus musculus with 2 samples.

Results

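Mature calprotectin-high neutrophils of the mouse spleen hold a large part of their transcripts as RNA of S100a8 and S100a9, the 2 subunits of calprotectin. Members of this group were chosen by measured values. The choice leaves almost no RNA of Camp, Ngp and Ltf, granule proteins of younger neutrophils. A cell was taken when at least 10% of its UMIs (unique molecular identifiers, which count captured RNA molecules) came from S100a8 and S100a9, less than 0.2% from Camp, Ngp and Ltf, fewer than 10 UMIs from Elane, Mpo and Prtn3, and fewer than 5 UMIs from the interferon genes Rsad2, Ifit1, Ifit3, Isg15 and Slfn4. These 13 genes are what the choice used, so their values are given as a description. Cells needed 500 UMIs or more, 200 genes or more and no more than 10% mitochondrial UMIs, and of the 13258 that passed 1510 were members, 1167 from high B12 and 343 from low B12 spleen.

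The study profiled splenic cells by droplet-based 3′ RNA sequencing in 1 library labelled High B12 and 1 labelled Low B12. Frozen spleen suspensions had been sorted for CD45.2, an allelic form of the leukocyte antigen CD45, and for CD11b, the integrin chain encoded by Itgam, together with the viability dye DAPI. The series title places the work in Tet2-deficient blood formation, while the labels state no genotype, strain, age, dose, duration, cell donor or number of mice behind a library. With 1 library per condition no test between conditions was possible, a library cannot be told apart from its condition, and all intervals are 95% intervals for counting error only.

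Neutrophils are short-lived phagocytes that leave the bone marrow and patrol blood and spleen. While they mature they make their granule proteins in order, primary, secondary and then gelatinase granules, and afterwards turn to receptors for chemokines and growth factors and to cytokines such as interleukin-1 beta. S100a8 and S100a9 bind calcium, zinc and manganese, form the heterodimer calprotectin, and are among the most abundant proteins of the neutrophil cytosol. The secreted dimer withholds metals from microbes and is a ligand of Toll-like receptor 4.

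The high B12 library held 46994991 UMIs and the low B12 library 48884220 UMIs over all barcodes. Members had a median of 3198 UMIs and 1145 genes for high B12 and 2768 UMIs and 1091 genes for low B12. After thinning every member to 500 UMIs the medians were 299 and 314 genes. Median mitochondrial shares were 0.277% for high B12 and 0.300% for low B12. Of the barcodes of cells 4 occurred in both libraries; 1 of these was a member for high B12, and none was a member in both. Scrublet called 18 members of the high B12 library (1.54%) and 4 of the low B12 library (1.17%) as doublets, and they were kept. RNA from empty droplets differed between the libraries, with 6.58% of its UMIs from S100a8 and S100a9 for high B12 and 2.32% for low B12.

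The markers of mature neutrophils were present in both libraries. Levels are in CPM, a gene's UMIs per 1000000 UMIs of all members of a library. Retnlg, a resistin-like secreted protein gene, stood at 11369 CPM in high B12 members and 9777 CPM in low B12 members. Csf3r, the receptor for granulocyte colony-stimulating factor, had a UMI in 99.7% of high B12 members and in all 343 low B12 members. In cells thinned to 500 UMIs it was seen in 75.2% and 78.7% of members and in 0.649% and 0.857% of B cells (median depths before thinning 3198 and 2768 UMIs against 6342.5 and 5995 UMIs), a type that should lack it. Cxcr2, the receptor for chemokines that call neutrophils out of the marrow, was seen in 37.5% and 41.1% of thinned members and in 0.325% and 0.343% of thinned B cells. For Il1b these shares were 76.2% and 85.7% of members and 0.974% and 0.914% of B cells.

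Markers of lymphocytes, progenitors and basophils were low in members, while some lists of myeloid cells came near the level of other cells. The 12 immature neutrophil genes, Camp, Ngp and Ltf included, summed to 2175 and 1655 CPM in the high and the low B12 library. Lcn2 led them at 1422 and 1037 CPM. In cells with less than 1% of UMIs from S100a8 and S100a9 the same genes summed to 529 and 262 CPM. The 12 T cell genes summed to 27.4 and 31.6 CPM, with 5 and 6 of them at 0, in the high and the low B12 library. The 12 B cell genes summed to 406 and 401 CPM, against 12672 and 15913 CPM in cells with less than 1% of UMIs from S100a8 and S100a9, and all 12 had a UMI in each library. The 10 granulocyte progenitor genes summed to 90.7 and 103 CPM, with 4 and 6 at 0, and the 8 classical monocyte genes to 185 and 198 CPM, with Csf1r the highest of them. The 12 NK cell genes summed to 193 and 379 CPM, against 5638 and 3657 CPM in cells with less than 1% S100a8 and S100a9. The nonclassical monocyte list summed to 542 and 680 CPM, against 762 and 1063 CPM in those cells, with the integrin gene Itgal at 419.7 and 549 CPM. The macrophage list summed to 175 and 232 CPM, against 234 and 303 CPM, led by Hmox1. The conventional dendritic cell list summed to 418 and 497 CPM, against 782 and 799 CPM, led by Sirpa. The eosinophil list summed to 14.8 and 15.8 CPM, against 13.4 and 6.95 CPM. In each of these lists of myeloid cells 1 gene held much of the sum, and the part of such cells in the results was not tested. Of the 6 basophil and mast cell genes, 5 were at 0 for high B12 and all 6 for low B12. The RNA of Y-linked Eif2s3y was present in both libraries, at 93.0 CPM in high B12 members and 117 CPM in low B12 members.

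Members made up a larger part of the sorted cells in the high B12 library. Shares are of sorted CD45.2+CD11b+ cells with 500 UMIs or more, so the sort and the UMI minimum can set them. For high B12 they were 17.3%, with 1167 of 6748 cells and an exact binomial interval of 16.4 to 18.2%. For low B12 they were 5.27%, with 343 of 6510 cells and an interval of 4.74 to 5.84%. The difference was 12.03 percentage points (10.97 to 13.1) and the ratio of shares 3.28. It was 8.09 points with a calprotectin limit of 15%, and 5.44 points, 9.91% for high B12 against 4.47% for low B12, where no UMI of Camp, Ngp or Ltf was allowed. They carried 9.34% of the UMIs of all cells of the high B12 library and 2.27% of those of the low B12 library. The high B12 library thus held the larger share on either scale. The cells counted include B cells, taken as cells with 3 or more Cd79a UMIs and less than 1% S100a8 and S100a9. These were 616 of the 6748 high B12 cells and 1750 of the 6510 low B12 cells. Their part in the difference of shares was not tested.

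Other neutrophils were also more frequent in the high B12 library. Adding the cells that fail 1 limit of the choice gave 2972 cells for high B12 and 1204 for low B12, of which members were 39.3% (37.5 to 41.0%) and 28.5% (25.95 to 31.1%), a ratio of 1.38. The added cells were of 3 kinds. Cells with 0.2% or more of UMIs from Camp, Ngp and Ltf, called the granule RNA set here, were 9.31% and 3.46% of cells in the high and the low B12 library. Cells with 5 or more interferon UMIs, the interferon set, were 2.001% and 0.399%. Cells under 10% S100a8 and S100a9 with a UMI each of Csf3r and Cxcr2, the calprotectin-low set, were 15.4% and 9.37%. Within the neutrophils the calprotectin-low set was 35.1% for high B12 and 50.7% for low B12, so the low B12 library leaned to cells with less calprotectin RNA. The calprotectin-low set also holds RNA of other cells, with Ighm at 316.5 and 1453 CPM and Cd74 at 2141 and 3236 CPM. Limited to its cells with little such RNA, as described with the comparison to this set, members were 45.4% (43.4 to 47.3%) for high B12 and 37.0% (33.9 to 40.2%) for low B12. The filtered calprotectin-low set was then 24.99% and 35.9%.

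The limit of 10% cut through a continuous range. Just inside it, at 10 to 11%, lay 85 cells from high B12 and 50 from low B12, and just outside, at 9 to 10%, 93 and 53 cells. Retnlg was at 5130 CPM inside and 4901 CPM outside in the high B12 library, and at 5526 CPM inside and 6314 CPM outside in the low B12 library. Csf3r had a UMI in all of these cells on either side.

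**Figure D1:**
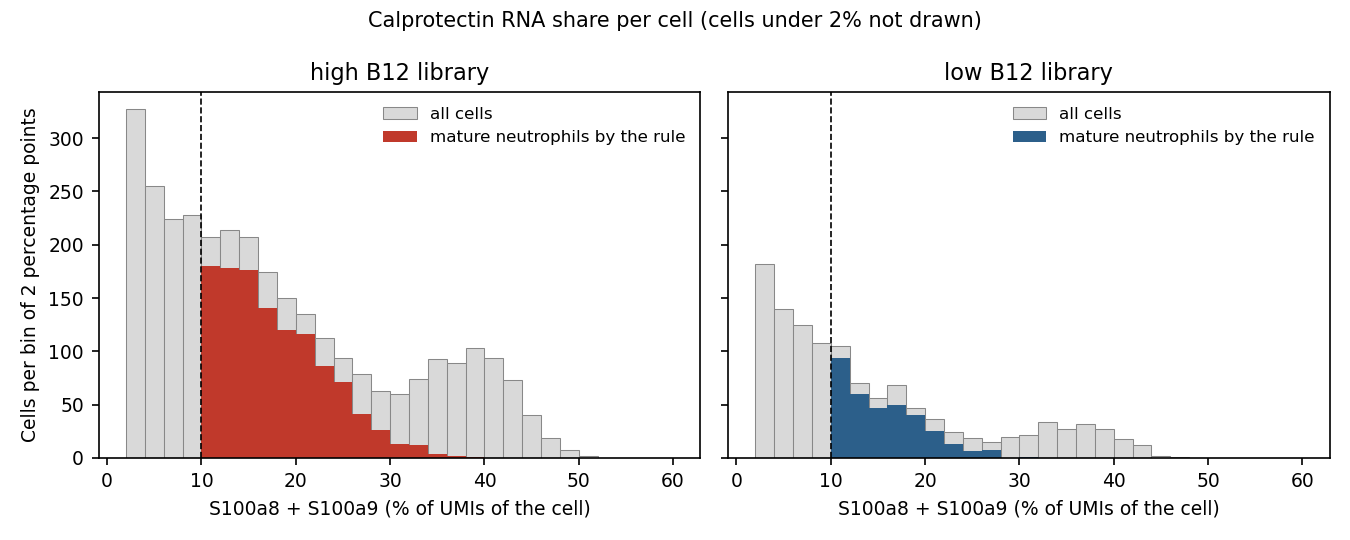
Number of cells (vertical axis) by the percentage of a cell's UMIs from S100a8 and S100a9 (horizontal axis, bins of 2 points, cells under 2% not drawn), high B12 library left and low B12 library right, grey for all cells and colour for members. Members begin at the dashed line at 10% and reach 38.2% for high B12 and 31.1% for low B12; the grey part above it is mostly cells of the granule RNA set.

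S100a8 and S100a9 were the most abundant transcripts of these cells in both libraries. S100a8 stood at 85476 CPM in high B12 members and 73438 CPM in low B12 members, and S100a9 at 96678 CPM in high B12 members and 84429 CPM in low B12 members. A member held a mean of 291 S100a8 and 330 S100a9 UMIs for high B12 and 217 and 249 for low B12. The share of the pair per cell had a median of 16.7% in the high B12 members and 14.7% in the low B12 members, which the choice of cells itself bounds from below. The pair stood in nearly the same proportion in both libraries. The median S100a8 to S100a9 ratio per cell was 0.878 and 0.871. Across members their shares correlated with a Spearman coefficient of 0.799 over 1167 cells and 0.666 over 343 cells, a description, since both shares have the same total and the choice used their sum.

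The genes of the pair lie side by side on chromosome 3 of GRCm38, S100a8 at 90668978 to 90670035 and S100a9 at 90692632 to 90695721, and Retnlg lies on chromosome 16 at 48872621 to 48874496. The 250 bases before the RefSeq start of each (GRCm38.p6) are shown because these 3 genes carry the identity of the cells; S100a8 is chr3:90668821-90669070 on the plus strand, S100a9 chr3:90695722-90695971 on the minus strand and Retnlg chr16:48872358-48872607 on the plus strand, and capitals mark matches to the searched letters.
S100a8: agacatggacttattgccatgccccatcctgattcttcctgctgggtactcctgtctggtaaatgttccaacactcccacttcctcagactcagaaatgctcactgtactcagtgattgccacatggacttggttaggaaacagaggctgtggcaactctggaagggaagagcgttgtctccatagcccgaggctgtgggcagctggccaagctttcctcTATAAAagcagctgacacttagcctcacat
S100a9: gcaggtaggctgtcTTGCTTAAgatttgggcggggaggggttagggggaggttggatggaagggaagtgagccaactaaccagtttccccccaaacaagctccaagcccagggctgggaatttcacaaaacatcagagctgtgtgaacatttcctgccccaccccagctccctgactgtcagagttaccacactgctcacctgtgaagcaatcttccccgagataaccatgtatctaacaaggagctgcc
Retnlg: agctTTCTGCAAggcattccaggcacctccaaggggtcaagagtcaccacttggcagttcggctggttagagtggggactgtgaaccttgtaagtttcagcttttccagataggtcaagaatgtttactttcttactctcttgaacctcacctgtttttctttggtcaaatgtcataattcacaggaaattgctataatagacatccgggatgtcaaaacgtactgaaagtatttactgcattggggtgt
Both strands were searched for TATAAA, the letters of a TATA box, and for TTGCNNAA, the letters bound by C/EBP factors, which drive granulocyte genes. S100a8 had TATAAA 30 to 25 bases before its start, S100a9 had TTGCTTAA 236 to 229 bases before it, and Retnlg had TTCTGCAA, a match on the opposite strand, 246 to 239 bases before it. TATAAA occurs in 12.4% and TTGCNNAA in 9.56% of 32851 RefSeq promoters of this length, so a match describes the letters and no more.

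Gene by gene, members of both libraries resembled each other, with more genes slightly lower than higher in the high B12 library. Of 5569 genes with at least 50 UMIs over both libraries, 262 (4.7%) were 1.5-fold or more higher and 426 (7.65%) 1.5-fold or more lower in the high B12 members. The ratio was above 1 for 37.5% and below 1 for 62.5% of genes, and the median log2 ratio was −0.10. Scaling by the median ratio of genes adds 0.10 to every log2 ratio, which gives 373 genes higher and 257 lower. The shift went with gene length on the genome: the median log2 ratio was 0.017 in the fifth of genes with the shortest span (0.204 to 8.33 kb) and −0.17 in the fifth with the longest (77.3 kb and more), and the part of length in the ratios was not tested.

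**Figure D2:**
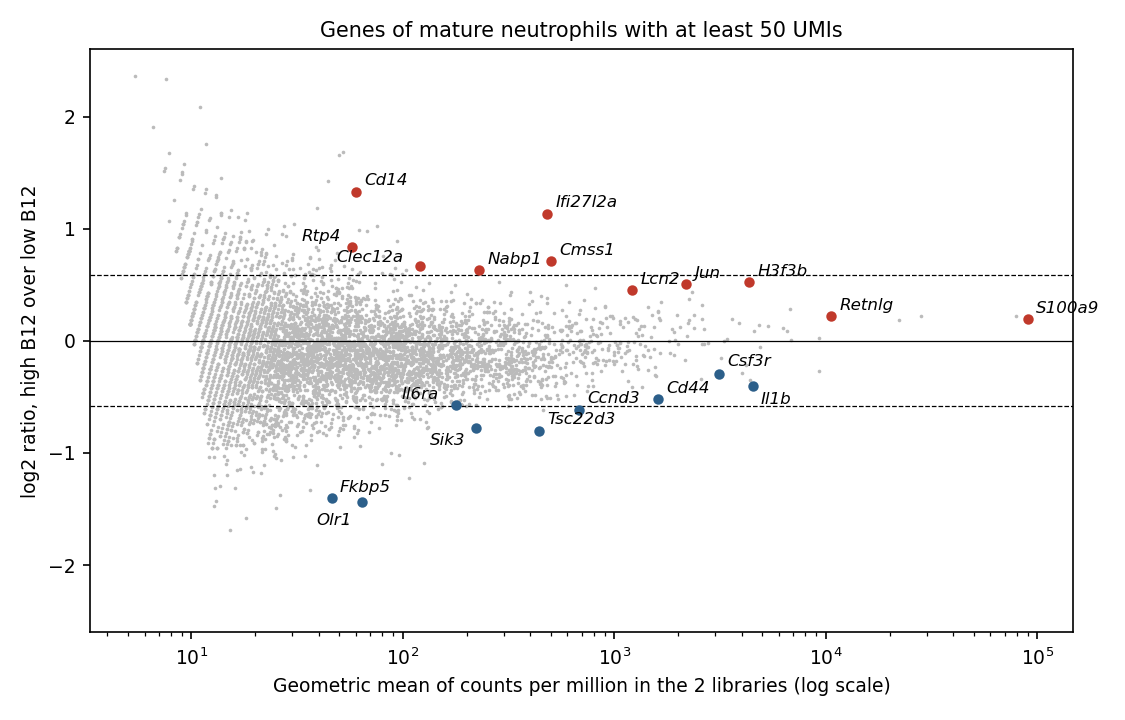
Log2 ratio of CPM in members, high B12 over low B12 (vertical axis), against the geometric mean of CPM of both libraries (horizontal axis, log scale), 1 point per gene with at least 50 UMIs; dashed lines mark 1.5-fold. Genes named in the text are coloured red where higher and blue where lower in the high B12 library; Ifi27l2a at 1.13 and Tsc22d3 at −0.80 stand apart from genes of similar level.

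The largest ratios among well-measured genes (200 CPM or more in a library, interval clear of a margin around 1 given with the methods) were 10 genes higher and 33 lower in the high B12 members. Ifi27l2a, an interferon-induced gene, led the higher ones at 715 CPM in high B12 members and 325 CPM in low B12 members, a ratio of 2.20 (1.96 to 2.47). The 10 cells with most of it held 12.7% of its UMIs for high B12 and 47.7% for low B12. H3f3b, which encodes the replacement histone H3.3, stood at 5221 CPM in high B12 members and 3624 CPM in low B12 members, a ratio of 1.44 (1.39 to 1.49). Cmss1 stood at 641 CPM in high B12 members and 391 CPM in low B12 members with a ratio of 1.64 (1.47 to 1.82), and Nabp1, a single-stranded DNA binding protein gene, at 285 CPM in high B12 members and 184 CPM in low B12 members with 1.55 (1.33 to 1.82). The others were Hmgn2, a nucleosome-binding protein gene, Jun, Ifitm3, AY036118, Lcn2 and Lyz2, with ratios of 1.35 to 1.44.

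Tsc22d3 led the lower genes. It encodes the glucocorticoid-induced leucine zipper (GILZ) and stood at 334 CPM in high B12 members and 582 CPM in low B12 members, a ratio of 0.575 (0.521 to 0.634). Sik3, a salt-inducible kinase gene, stood at 169 CPM in high B12 members and 289 CPM in low B12 members, a ratio of 0.584 (0.509 to 0.673). Ccnd3, which encodes cyclin D3, stood at 548 CPM in high B12 members and 838 CPM in low B12 members with a ratio of 0.654 (0.604 to 0.709). Next came Lrmda, Klf3, a transcriptional repressor gene, Peak1, Rab27a, whose GTPase docks granules for release, Tbc1d14, Il6ra, Nampt, which encodes an NAD-producing enzyme, Ets2 and Qk, with ratios of 0.653 to 0.679. Qk turned to a log2 ratio of 0.083 in cells thinned to 500 UMIs, while Tsc22d3 was then at −0.89.

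**Figure D3:**
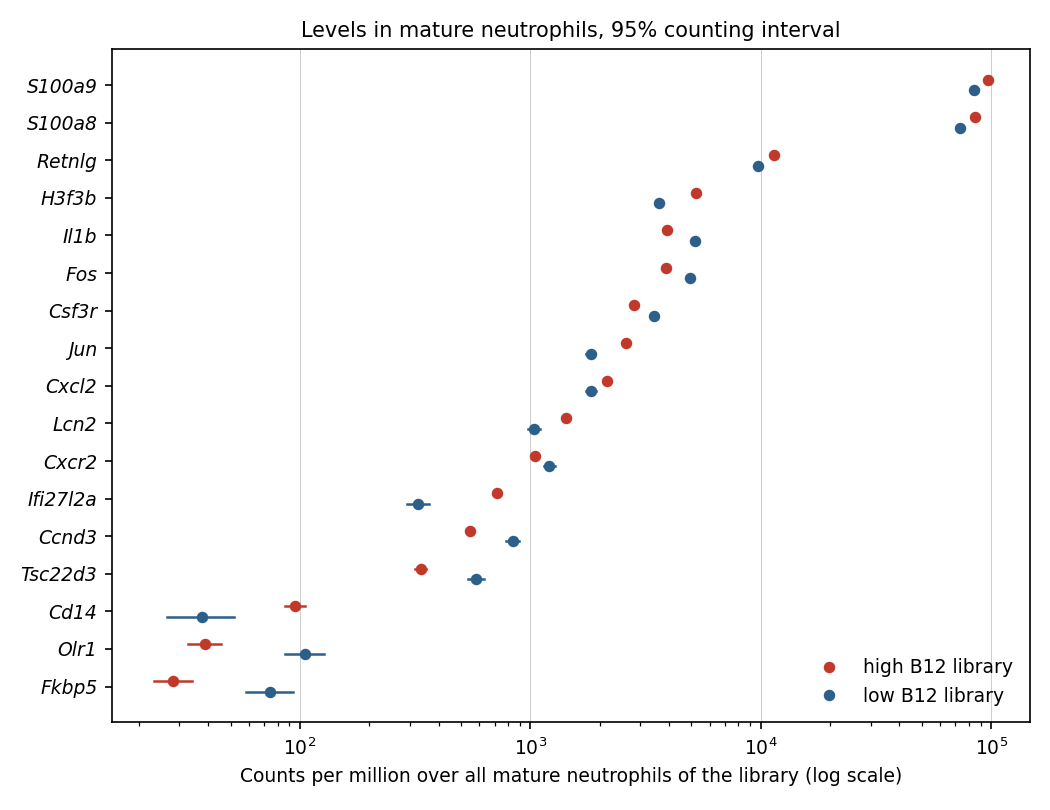
CPM over all members of a library (horizontal axis, log scale) for 17 genes, high B12 in red above low B12 in blue, with exact Poisson 95% intervals as lines. S100a9 and S100a8 lie furthest right in both libraries; red lies right of blue for Ifi27l2a, Cd14 and Lcn2 and left of it for Il1b, Tsc22d3, Olr1 and Fkbp5.

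Markers of maturation did not move together. Of 18 such genes outside the choice, 8 were higher and 10 lower in the high B12 members, with a median log2 ratio of −0.096. Retnlg was higher, at a ratio of 1.16 (1.14 to 1.19). With strata of calprotectin share (10 to 20%, and 20% or more) weighted alike its log2 ratio was 0.035. Csf3r was lower, at 2815 CPM in high B12 members and 3459 CPM in low B12 members, a ratio of 0.814 (0.783 to 0.845). Il1b was lower too, at 3919 CPM in high B12 members and 5171 CPM in low B12 members and a ratio of 0.758 (0.735 to 0.782), and Cxcr2 stood at 1047 CPM in high B12 members and 1211 CPM in low B12 members, a ratio of 0.865 (0.811 to 0.922). The interval of each of these ratios excludes 1, and Csf3r, Il1b and Cxcr2 stayed lower under every alternative that was run.

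Genes of secondary granules were higher in the high B12 members, while gelatinase granule genes were split. Of 10 measured secondary granule genes outside the choice, 9 were higher (37.5% of all genes were), 3 of them 1.5-fold or more, and the median log2 ratio was 0.37. Lcn2, which encodes the iron-withholding protein lipocalin 2, stood at 1422 CPM in high B12 members and 1037 CPM in low B12 members, a ratio of 1.37 (1.28 to 1.47). Ly6g, the surface antigen by which mouse neutrophils are recognised, stood at 121 CPM in high B12 members and 80.1 CPM in low B12 members, a ratio of 1.52 (1.196 to 1.94), and Wfdc21 at 1866 CPM in high B12 members and 1469 CPM in low B12 members, a ratio of 1.27 (1.201 to 1.34). The choice allows up to 0.2% of UMIs from Camp, Ngp and Ltf, and the libraries filled that room unequally: 57.3% of high B12 members and 84.8% of low B12 members had no UMI of these 3 genes. Camp was at 72.9 and 26.7 CPM and Ngp at 93.5 and 28.7 CPM in the high and the low B12 library.

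Free RNA differed in the same direction. In empty droplets Lcn2 was at 1935 and 756 CPM and Camp at 6328 and 2448 CPM in the high and the low B12 library, and in cells with less than 1% S100a8 and S100a9 the log2 ratio was 1.76 for Lcn2 and 2.07 for Ly6g. After a subtraction of the empty-droplet profile the log2 ratio of Lcn2 was 0.41, and in members without any Camp, Ngp or Ltf UMI it was 0.40. It was 0.22 in members with 2000 to 4000 UMIs, a range chosen after seeing the data. At 10 to 13% calprotectin share Lcn2 was at 833 CPM for high B12 and 957 CPM for low B12. It was at 1363 and 1069 CPM at 13 to 18%, and at 2525 and 1805 CPM at 18% or more. These CPM are of UMIs other than S100a8 and S100a9. In the filtered calprotectin-low set 4 of 9 secondary granule genes outside the choice were higher, with a median log2 ratio of −0.022.

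Of 13 gelatinase granule genes 6 were higher and 7 lower, and their median log2 ratio was −0.14. Mmp9, the gelatinase itself, stood at 1401 CPM in high B12 members and 1730.5 CPM in low B12 members, a ratio of 0.810 (0.767 to 0.855). Adam8, a membrane metalloproteinase gene, stood at 278 CPM in high B12 members and 336 CPM in low B12 members with 0.826 (0.731 to 0.936). Cfp, which encodes the complement factor properdin, went the other way, at 104 CPM in high B12 members and 76.1 CPM in low B12 members and a ratio of 1.37 (1.07 to 1.77). For Mmp25 and Clec5a the interval included 1, at ratios of 0.731 and 1.37.

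Among the remaining S100 genes, S100a11 was higher and S100a6 lower. S100a11 stood at 7480.3 CPM in high B12 members and 6127 CPM in low B12 members, a ratio of 1.22 (1.19 to 1.255). S100a6 stood at 8438 CPM in high B12 members and 10144 CPM in low B12 members, a ratio of 0.832 (0.814 to 0.851).

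Receptors for chemokines, growth factors and microbial products were mostly slightly lower in the high B12 members, with a few exceptions. Of 47 measured, 16 were higher and 31 lower, 3 were 1.5-fold or more higher and none 1.5-fold or more lower, with a median log2 ratio of −0.11, close to that of all genes. Cd14, the co-receptor for lipopolysaccharide, stood at 95.5 CPM in high B12 members and 37.6 CPM in low B12 members, a ratio of 2.54 (1.82 to 3.65). That is 380 UMIs in high B12 and 38 UMIs in low B12 members, with 27.9% and 52.6% of them in 10 cells. Clec12a, an inhibitory C-type lectin receptor for uric acid crystals, stood at 152 CPM in high B12 members and 94.9 CPM in low B12 members, a ratio of 1.60 (1.29 to 2.002), and Clec4a2 at 107 CPM in high B12 members and 70.2 CPM in low B12 members, a ratio of 1.52 (1.18 to 1.98). Tlr4 stood at 64.1 CPM in high B12 members and 45.5 CPM in low B12 members with 1.41 (1.03 to 1.97).

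Il6ra, the alpha chain of the interleukin-6 receptor, was the receptor gene with the lowest ratio among those at 50 CPM or more. It stood at 146 CPM in high B12 members and 216 CPM in low B12 members, a ratio of 0.675 (0.577 to 0.792). Of 22 adhesion and migration genes 5 were higher and 17 lower, and their median log2 ratio, −0.11, becomes −0.012 with scaling by the median ratio. Cd44, the hyaluronan receptor, stood at 1336 CPM in high B12 members and 1912 CPM in low B12 members, a ratio of 0.699 (0.663 to 0.737). The integrin chains followed: Itga4 at 269 CPM in high B12 members and 376 CPM in low B12 members, Itgal at 419.7 CPM in high B12 members and 549 CPM in low B12 members, and Itgax at 33.9 CPM in high B12 members and 58.3 CPM in low B12 members, the last with a ratio of 0.582 (0.425 to 0.804). Fgr, a Src family kinase of integrin signalling, stood at 690.4 CPM in high B12 members and 879.6 CPM in low B12 members.

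Inflammatory genes did not shift as a group. Of 31 measured 11 had higher values and 20 lower, with a median log2 ratio of −0.053 that turns to 0.048 with scaling by the median ratio of genes. Beside Il1b, the NF-kB-linked genes Tnfaip2 at 543 CPM in high B12 members and 760.0 CPM in low B12 members, Nfkbid at 197 CPM in high B12 members and 272 CPM in low B12 members and Bcl3 at 69.1 CPM in high B12 members and 97.8 CPM in low B12 members were lower, with ratios of 0.706 to 0.725. Marcksl1 was the only 1 of the list that was 1.5-fold or more lower, at 106 CPM in high B12 members and 165 CPM in low B12 members. Cd14, given above, is also on this list and went the other way.

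Immediate early genes, which are induced within minutes of a stimulus, were divided. Jun, an AP-1 factor gene, stood at 2599.8 CPM in high B12 members and 1832 CPM in low B12 members, a ratio of 1.42 (1.35 to 1.49), and Egr1, a zinc finger factor gene, at 514 CPM in high B12 members and 389 CPM in low B12 members, a ratio of 1.32 (1.18 to 1.47). Fos, the partner gene of Jun, stood at 3862 CPM in high B12 members and 4924 CPM in low B12 members, a ratio of 0.784 (0.760 to 0.810), and Fosb at 649 CPM in high B12 members and 858 CPM in low B12 members, a ratio of 0.756 (0.700 to 0.818). Jun and Egr1 were thus higher and Fos and Fosb lower in the summed counts of members, under each of the scalings run. Of all 19 immediate early genes 6 were higher and 13 lower, where 37.5% of all genes were higher and 62.5% lower. With scaling by the median ratio of genes 11 were higher and 8 lower.

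Among 38 transcription factors 8 were higher, 3 of them, all under 50 CPM, 1.5-fold or more, and 30 lower, 4 of them 1.5-fold or more (4.7% of all genes were that much higher, 7.65% that much lower and 62.5% below 1). The median log2 ratio was −0.19. Ets2 stood at 169 CPM in high B12 members and 249 CPM in low B12 members, a ratio of 0.677 (0.585 to 0.786). Irf1 stood at 264 CPM in high B12 members and 378 CPM in low B12 members, a ratio of 0.700 (0.622 to 0.789), and Hif1a, the oxygen-regulated factor, at 95.7 CPM in high B12 members and 136 CPM in low B12 members, a ratio of 0.702 (0.576 to 0.859). Nfil3, a circadian basic leucine zipper factor, stood at 49.0 CPM in high B12 members and 70.2 CPM in low B12 members. With scaling by the median ratio 15 were higher and 23 lower.

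Glucocorticoid-responsive genes were the list with the lowest median among those with 5 or more measured genes. None of the 14 measured genes was higher, Anxa1 being level at 774 CPM in both libraries (62.5% of all genes were below 1), 3 were 1.5-fold or more lower, against 7.65% of all genes, and the median log2 ratio was −0.38. With scaling by the median ratio the median was −0.28, 11 genes stayed lower, and Anxa1, Cebpd and Il1r2 were higher. Fkbp5, a chaperone that dampens the glucocorticoid receptor, stood at 28.1 CPM in high B12 members and 74.1 CPM in low B12 members, a ratio of 0.380 (0.281 to 0.516). Sgk1, a serum and glucocorticoid-regulated kinase gene, stood at 151 CPM in high B12 members and 219 CPM in low B12 members, a ratio of 0.690 (0.590 to 0.808). Per1, a clock gene, stood at 44.5 CPM in high B12 members and 64.2 CPM in low B12 members, and Zfp36l2, which encodes an RNA decay factor, at 498 CPM in high B12 members and 699.7 CPM in low B12 members, a ratio of 0.711 (0.652 to 0.776). That Tsc22d3 is low in neutrophils of this library was known when the list was written, so the list is no independent evidence.

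Tsc22d3 was lower in the other sets of cells too. Its log2 ratio was −0.80 in members, −0.46 in the granule RNA set, −0.83 in the interferon set and −0.56 in cells with less than 1% S100a8 and S100a9. For Fkbp5 it was −1.40 in members and −0.72 in those cells, and for Zfp36l2 −0.49 and −0.029. The differences between these ratios were not tested. The letters of the glucocorticoid response element, searched on both strands, matched in none of the 250-base windows before the RefSeq starts of Tsc22d3 and Fkbp5 and in 0.387% of all promoters of that length. At that frequency a window without a match is the usual case, and sequence outside these windows was not searched. The absence of a match therefore says nothing about how these genes are regulated.

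Interferon-induced genes were higher in the high B12 members, although the choice removes the cells richest in them. Of 28 measured type I interferon genes outside the choice 24 were higher (37.5% of all genes were), 5 of them 1.5-fold or more, against 4.7% of all genes. The median log2 ratio was 0.28. Beside Ifi27l2a, Ifitm3, which blocks the entry of enveloped viruses, stood at 702 CPM in high B12 members and 498 CPM in low B12 members, a ratio of 1.41 (1.28 to 1.55). Rtp4, a chaperone of surface receptors, stood at 76.6 CPM in high B12 members and 42.5 CPM in low B12 members, a ratio of 1.80 (1.31 to 2.54), and Isg20, an exonuclease gene, at 50.3 CPM in high B12 members and 31.6 CPM in low B12 members, a ratio of 1.59 (1.09 to 2.39).

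Isg15, a gene of the choice, stood at 52.0 CPM in high B12 members and 28.7 CPM in low B12 members. No UMI of the 5 interferon genes of the choice was found in 51.8% of high B12 and 61.5% of low B12 members. The limit of 5 UMIs bears on the size of the group difference: the median of the whole list of 31 genes was 0.25 as chosen, 0.39 with no interferon limit and 0.14 with a calprotectin limit of 15%. Of 11 measured genes of the interferon gamma list 3 were higher, and their median was −0.028 on the log2 scale.

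**Figure D4:**
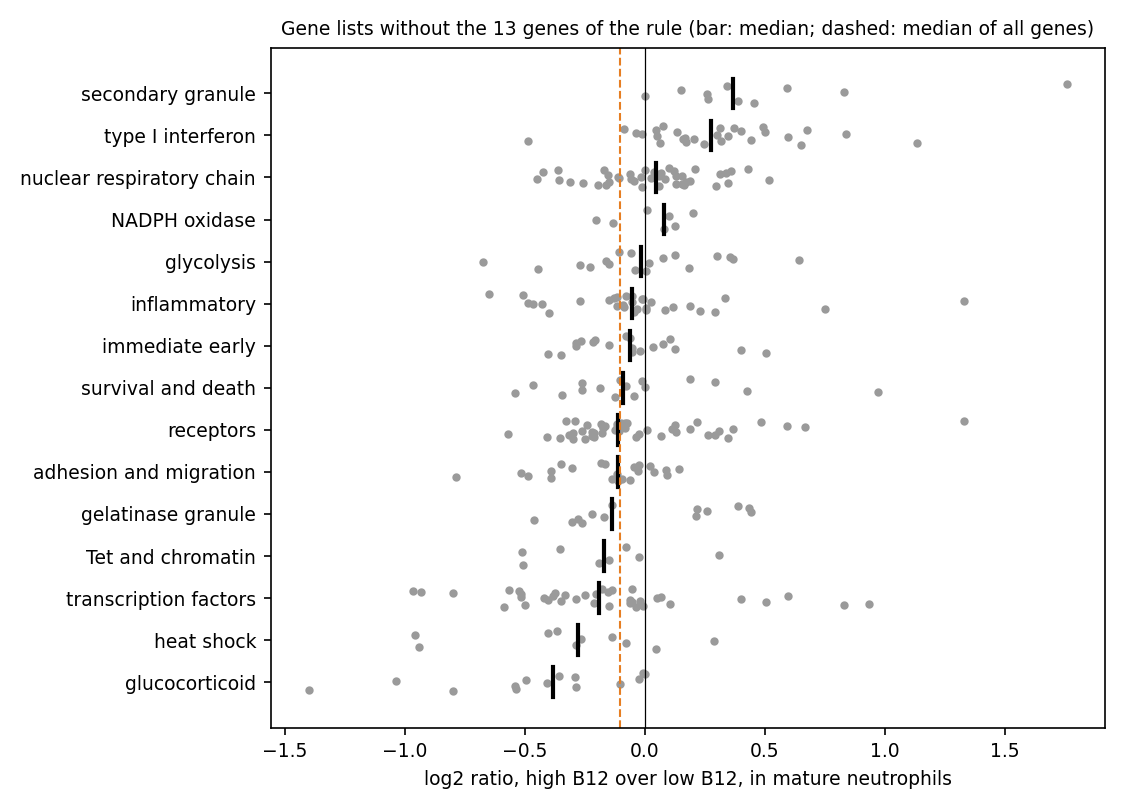
Log2 ratios, high B12 over low B12, of the measured genes of 15 lists in members (grey points, genes of the choice left out), with the list median as a black bar, zero as a solid line and the median of all genes, −0.10, as a dashed line. The medians of the secondary granule and type I interferon lists lie furthest right, that of the glucocorticoid list furthest left.

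Of 7 genes of the NADPH oxidase, which makes superoxide in phagosomes, 5 were higher and 2 lower, with a median log2 ratio of 0.079 and none 1.5-fold apart. Rac2, its GTPase, stood at 1055 CPM in high B12 members and 918 CPM in low B12 members, a ratio of 1.15 (1.07 to 1.23). Of 16 survival and death genes 4 were higher and 12 lower, where 37.5% of all genes were higher and 62.5% lower. With scaling by the median ratio of genes 8 were higher and 8 lower. The 5 named by the rule, Bcl2l11, Gsdmd, Cflar, Bid and Xiap, had ratios of 0.791 to 1.24, each with an interval that includes 1.

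Of 18 glycolytic genes 9 were higher and 9 lower, where 37.5% of all genes were higher and 62.5% lower. With scaling by the median ratio of genes 11 were higher and 7 lower. Genes at either end stood apart. Gapdh stood at 813 CPM in high B12 members and 629.5 CPM in low B12 members, a ratio of 1.29 (1.19 to 1.41), and Tpi1 at 71.6 CPM in high B12 members and 45.5 CPM in low B12 members, a ratio of 1.58 (1.15 to 2.20). Pfkfb3, whose enzyme sets the pace of glycolysis, stood at 44.2 CPM in high B12 members and 70.2 CPM in low B12 members, a ratio of 0.630 (0.476 to 0.843). Of 44 nuclear genes of the respiratory chain 26 were higher and 18 lower, a larger part higher than among all genes. With scaling by the median ratio 31 were higher and 13 lower. Of 12 genes encoded by the mitochondrial genome 11 were lower, with a median log2 ratio of −0.17. Cytoplasmic ribosomal protein genes were 41 higher and 40 lower.

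Genes of vitamin B12 handling were barely expressed in these cells. Of 18 listed 4 reached 50 UMIs, of which 3 were higher and 1 lower, with a median log2 ratio of 0.11. The 1 past 1.5-fold was Mmadhc, a cobalamin trafficking gene named after its values were seen, with 45 UMIs for high B12 and 7 for low B12, a ratio of 1.63 (0.732 to 4.30). Tcn2, the plasma transport protein transcobalamin, was the only 1 above 50 CPM, at 95.2 CPM in high B12 members and 90.9 CPM in low B12 members and a ratio of 1.05 (0.832 to 1.33). Mtr, which encodes the B12-dependent methionine synthase, had 13 UMIs for high B12 and 6 for low B12, and Mmut 8 and 2. Cd320, the cellular transcobalamin receptor, had 2 and 0 UMIs. No difference in these 3 genes was detectable at this depth.

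Tet2, the DNA demethylase gene named in the series title, was measured in members at 86.5 CPM in high B12 members and 123 CPM in low B12 members, a ratio of 0.705 (0.573 to 0.873). Counts from the 3′ end do not show whether an allele is intact. Of 8 measured Tet and chromatin genes 1 was higher and 7 lower, with a median log2 ratio of −0.17. Among all genes 62.5% were lower, with a median of −0.10. With scaling by the median ratio of genes 3 of the 8 were higher and 5 lower.

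Some ratios rested on few cells. Olr1, the lectin-like receptor for oxidised low-density lipoprotein that marks suppressive neutrophils in human tumours, stood at 38.7 CPM in high B12 members and 105 CPM in low B12 members, a ratio of 0.369 (0.287 to 0.478). Its UMIs came from 46 of 1167 high B12 and 21 of 343 low B12 members, and 10 cells held 55.8% and 81.1% of them. Of 14 genes of the myeloid suppressor list outside the choice, Olr1 included, 4 were higher and 10 lower, where 62.5% of all genes were lower. Vegfa was among the lower ones, at 73.1 CPM in high B12 members and 99.8 CPM in low B12 members. With scaling by the median ratio of genes 6 of the 14 were higher and 8 lower. The heat shock gene Hspa1b stood at 45.0 CPM in high B12 members and 86.0 CPM in low B12 members, with 41.9% and 78.2% of its UMIs in 10 cells, and its log2 ratio turned to 0.89 with a calprotectin limit of 15%. Its near-identical neighbour Hspa1a may share reads with it.

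The class II genes H2-Eb1 and Cd74, typical of B cells and dendritic cells, were higher by log2 ratios of 0.73 and 0.30. Without called doublets these turned to −0.18 and −0.13, and 10 cells held 58.5% and 59.3% of the Cd74 UMIs in the high and the low B12 members.

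Against the granule RNA set, which holds younger neutrophils, members were lower in primary and secondary granule and cell cycle genes and higher in inflammatory genes and receptors. Gelatinase granule genes were split, with 6 of 13 higher and 7 lower in both libraries. In both libraries 1190 of 5796 genes (20.5%) were 2-fold or more higher and 873 (15.1%) 2-fold or more lower in members. Il1b was at 3919 against 106 CPM among high B12 cells and 5171 against 128 CPM among low B12 cells. Wfdc17 was at 1595 against 33.7 CPM among high B12 cells and 1294 against 53.1 CPM among low B12 cells, and Ifitm1 at 2568 against 72.8 CPM among high B12 cells and 1986 against 63.6 CPM among low B12 cells. Ptgs2, which encodes the prostaglandin-forming cyclooxygenase 2, was at 336 against 10.5 CPM among high B12 cells and 356 against 16.7 CPM among low B12 cells, and Socs3, an inhibitor of cytokine signalling, at 337 against 13.1 CPM among high B12 cells and 356 against 14.7 CPM among low B12 cells. The others named by the rule were Jaml, H2-Q10, Fgl2, Cd101 and Sirpb1b. Of 48 receptor genes 32 were 2-fold or more higher in both libraries, and of 31 inflammatory genes 22.

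Chil3, a chitinase-like protein of younger neutrophils, was at 10.1 against 4316 CPM among high B12 cells and 4.94 against 4084 CPM among low B12 cells, members before the granule RNA set. Fcnb, the ficolin of granules, was at 0.754 against 389 CPM among high B12 cells and 0 against 438 CPM among low B12 cells, and Cebpe, the factor that drives secondary granule genes, at 13.1 against 348 CPM among high B12 cells and 6.92 against 357 CPM among low B12 cells. Orm1, Hist1h2ae, Serpinb1a, Itgb2l, Stmn1, Adpgk and Cybb were also among the lowest. Of 21 measured S phase genes 17 were 2-fold or more lower in both libraries, and of 21 G2 and M phase genes 18. Cells of the granule RNA set were deeper, with median UMIs of 11408 and 11616 in the high and the low B12 library, and the part of depth was not tested. These contrasts follow from sorting cells by granule RNA and are a description.

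Against the interferon set the members differed in few genes. Of 2683 genes 6 (0.224%) were 2-fold or more higher and 20 (0.745%) lower in both libraries, and the genes named here as lower are interferon-induced. Rtp4 was at 76.6 against 298 CPM among high B12 cells and 42.5 against 311 CPM among low B12 cells, and Oasl2 at 146 against 547 CPM among high B12 cells and 129 against 622 CPM among low B12 cells. Ddx60, Ifi27l2a, Sp100, Ifitm3, Epsti1, Samd9l and Trim30a followed. Of the other lists, no gene of the receptor, adhesion or gelatinase granule lists was 2-fold apart in both libraries, and the interferon set has only 26 cells in the low B12 library.

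Against calprotectin-low neutrophils the members carried more Lcn2, Retnlg and Wfdc21 RNA and were lower in a larger number of genes. The calprotectin-low set as first drawn held the Cd74 and Ighm RNA given above, so the comparison was made with cells of it that have at least 2% S100a8 and S100a9 and at most 1 UMI of Cd74, H2-Aa, H2-Ab1, H2-Eb1 and Cd79a (643 and 332 cells), a limit added after these values were seen. Of 3995 genes 9 (0.225%) were then 2-fold or more higher and 81 (2.03%) lower in members in both libraries. Against the set as first drawn these were 45 (0.661%) and 1608 (23.6%) of 6806 genes. CPM totals include S100a8 and S100a9, on which the choice rests, so other genes read lower in members. S100a9 stood at 96678 CPM in members and 33941 CPM in the filtered set for high B12, and at 84429 and 33623.5 CPM for low B12. Over 3988 genes outside the choice the median log2 ratio, members over filtered set, was −0.31 for high B12 and −0.22 for low B12.

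Lcn2 was at 1422 against 402 CPM among high B12 cells and 1037 against 408 CPM among low B12 cells, Retnlg at 11369 against 3614 CPM among high B12 cells and 9777 against 4035 CPM among low B12 cells and Wfdc21 at 1866 against 625 CPM among high B12 cells and 1469 against 672 CPM among low B12 cells, members before the filtered calprotectin-low set. Lower in members was the nuclear receptor gene Nr4a1, at 69.6 against 257 CPM among high B12 cells and 80.1 against 258 CPM among low B12 cells. Crip1, a LIM domain protein gene, was at 38.5 against 264 CPM among high B12 cells and 30.6 against 266 CPM among low B12 cells, and Pmaip1, which encodes the death-promoting protein NOXA, at 83.7 against 262 CPM among high B12 cells and 98.8 against 234 CPM among low B12 cells. Tmsb10, which encodes an actin-binding thymosin, Gngt2 and Ppia were lower too. Csf3r was at 2815 CPM in members and 3595 CPM in the filtered set of the high B12 library, and at 3459 CPM in members and 3826 CPM in that set for low B12. These totals include S100a8 and S100a9, and Csf3r was not compared per UMI outside the pair.

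Members also varied among themselves. Members were split at 13% and 18% of UMIs from S100a8 and S100a9, limits set after the planned ones at 20% and 30% left 32 high B12 and 1 low B12 cell in the top stratum. This gave 267, 408 and 492 cells for high B12 and 131, 120 and 92 cells for low B12, in rising order of share. Levels here are CPM of UMIs other than S100a8 and S100a9. Retnlg climbed over the 3 strata, at 7291, 11532 and 19323 CPM in high B12 members and 7341, 10711 and 18493 CPM in low B12 members. Lcn2 was at 833, 1363 and 2525 CPM in high B12 members and 957, 1069 and 1805 CPM in low B12 members, and Lyz2, the lysozyme gene, at 2047, 2456 and 4634 CPM in high B12 members and 1366, 2292 and 3813 CPM in low B12 members. Wfdc21, Mcemp1, Timp2, Rflnb and Atxn10 climbed as well.

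Other genes went down over the strata. Atf3, a stress-induced repressor, was at 586, 467 and 304 CPM in high B12 members and 648, 509 and 292 CPM in low B12 members. Ptma, which encodes prothymosin alpha, was at 396, 278 and 199 CPM in high B12 members and 469, 258 and 186 CPM in low B12 members, and Cd244a, a SLAM family receptor gene, at 302, 272 and 144 CPM in high B12 members and 296, 278 and 131 CPM in low B12 members. Ppp1r15a, Il1rap, Peli1, Dennd4a and Fgl2 also went down in both libraries. Of 930 genes at 200 CPM or more in a stratum, 130 climbed and 117 went down over the strata in both libraries.

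Csf3r and Cxcr2 varied less. Csf3r was at 3673, 3526 and 3251 CPM in high B12 members and 4256, 4132 and 3877 CPM in low B12 members, with log2 ratios of top over lowest stratum of −0.18 and −0.13, and Cxcr2 climbed slightly, at 1129.9, 1227 and 1403 CPM in high B12 members and 1325, 1424 and 1606 CPM in low B12 members, with 0.31 and 0.28. The median depth of a cell rose over the strata, at 2837, 3101.5 and 3513.5 UMIs for high B12 and 2625, 2748 and 3129.5 UMIs for low B12, while median genes per cell at 500 UMIs were 320, 307 and 277 for high B12 and 326, 310.5 and 290.5 for low B12. Tsc22d3 was lower in the high B12 library in each stratum, at 443, 449.5 and 358 CPM in high B12 members and 765, 633 and 665 CPM in low B12 members.

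**Figure D5:**
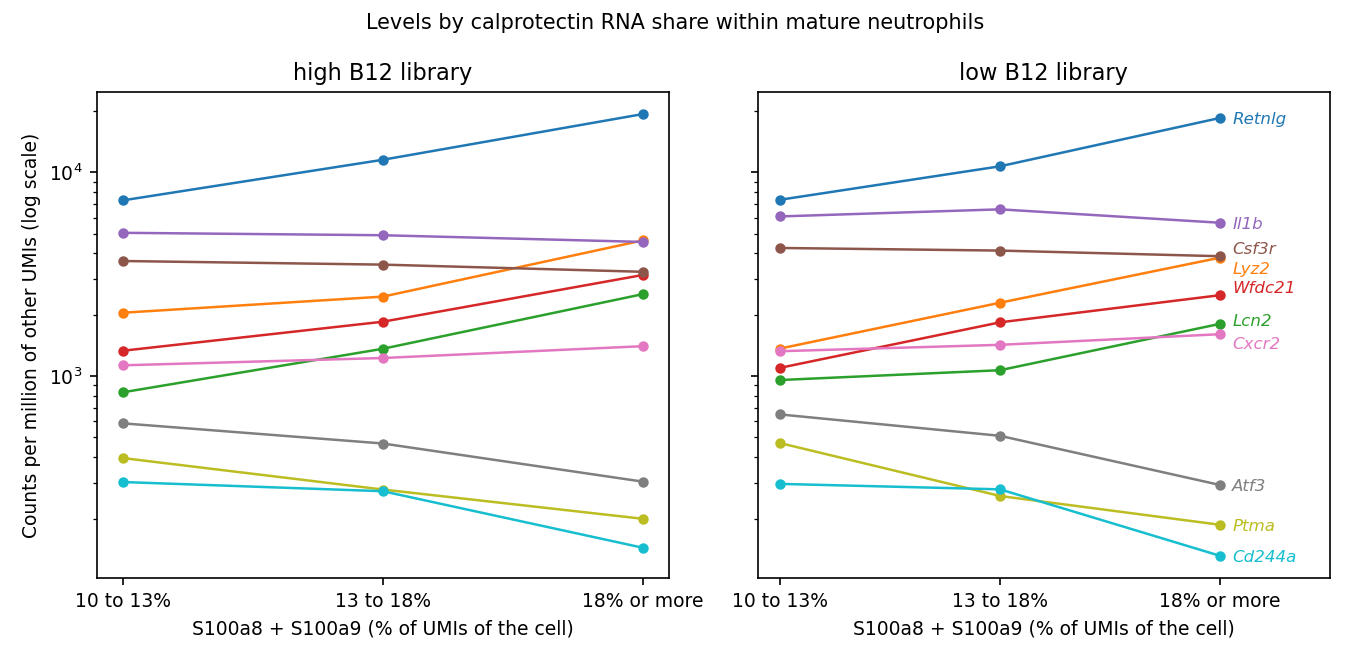
CPM of UMIs other than S100a8 and S100a9 (vertical axis, log scale) in members split by calprotectin share (horizontal axis, lowest stratum left), high B12 library left and low B12 library right, 1 line per gene. Retnlg, Lyz2, Lcn2 and Wfdc21 climb, Atf3, Ptma and Cd244a go down, and Csf3r, Cxcr2 and Il1b change less in both libraries.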

How the data were processed

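The authors deposited whole-number UMI counts for all barcodes of both libraries, empty droplets included, and no normalized values. Per the file headers they were made with Cell Ranger 4, and version 2.1.1 is the one in the submitters' processing notes. The kit was a 10x Genomics 3′ kit per the labels, and the genome build of the counts is not given in the sources used here. Gene positions are from GENCODE M21 (GRCm38), which holds 32235 of the 32285 gene IDs (99.8%), and promoter sequences from RefSeq (GRCm38.p6).

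Counts of members were summed per library and divided by the summed total (3979130 UMIs for high B12 and 1011858 for low B12 members) to give CPM. Ratios are high B12 over low B12 with exact conditional binomial intervals. Log2 ratios have 0.5 UMI added to each sum, and genes needed 50 UMIs over both libraries. Shares have exact binomial intervals, the difference of shares Newcombe's, and CPM exact Poisson intervals. UMIs of 1 cell are not independent draws of a condition, so no p-value was computed. The ratio intervals were checked on simulated sums, drawn as independent Poisson counts per gene. Such sums hold no variation between cells, so the check does not cover genes whose UMIs lie in few cells. Thinning drew 500 UMIs per cell with seed 1. Empty droplets were barcodes with 10 to 100 UMIs. Doublets were called with Scrublet in scanpy 1.11.5; other steps used Python 3.11.15, numpy 2.4.6, scipy 1.17.1 and pandas 2.3.3.

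Named genes were up to 12 each way among genes at 200 CPM or more whose interval excludes 1.25-fold, without mitochondrial, ribosomal, haemoglobin, immunoglobulin, T cell receptor and predicted genes, Xist and the 13 genes of the choice, of which 10 and 12 were found or taken. Added were up to 5 genes at 50 CPM or more of each of 27 lists, the markers and 6 genes of B12 and Tet2 biology. Against each neighbouring set up to 10 genes each way were named, and across strata up to 8. Anxa1, Cebpd, Il1r2 and Mmadhc fall under no rule and were named after their values were seen. The members and lists were chosen with earlier results of these data known. Alternatives changed 1 choice at a time. Some results that these rules name are not reported here.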

Additional observations from a re-analysis of the deposited data

Results flagged for a closer look

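Hspa1b, which encodes an inducible heat shock protein, went opposite ways in members and in the interferon set. In members its level was 45.0 CPM in the high B12 and 86.0 CPM in the low B12 library, a log2 ratio of −0.94. In the interferon set it was 162 CPM in the high B12 and 38.9 CPM in the low B12 library, a log2 ratio of 1.85. The counting interval of that set's ratio was wide, at 1.38 to 20.7. The members' ratio was lower by 2.79 on the log2 scale, written −2.79 as members minus the interferon set. The difference was not tested, the interferon set holds 26 low B12 cells, and 10 cells held 41.9% and 78.2% of the members' Hspa1b UMIs in the high and the low B12 library.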

How the results depend on the processing

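The difference in the members' share, 12.03 points, was 14.9 points with a calprotectin limit of 5%, 8.09 with 15%, 5.44 with no Camp, Ngp or Ltf UMI allowed and 13.6 with no interferon limit, and lay between 11.6 and 12.9 points under the other 6 alternatives. The 262 genes 1.5-fold or more higher were 150 with no granule UMI allowed, 90 in cells thinned to 500 UMIs, 432 with strata of calprotectin share weighted alike, 44 with at least 200 UMIs per gene, 1936 with no minimum and 155 with 2 UMIs added. The 426 genes 1.5-fold or more lower were 257 with scaling by the median ratio of genes, 187 thinned, 651 with free RNA subtracted, 80 with at least 200 UMIs and 3390 with no minimum. Thinning and the minimum on UMIs change how many genes are tested. The type I interferon median, 0.25, was 0.14 with a limit of 15%, 0.39 with no interferon limit and 0.35 with median scaling. With median scaling the glucocorticoid median was −0.28, the inflammatory 0.048, the gelatinase granule −0.034 and the receptor −0.0081; with a limit of 15% the gelatinase granule median was −0.019. The cause of the other moves was not tested.

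Sign changes were counted only for named genes whose interval excludes 1. Of 2317 log2 ratios of 116 named genes under 20 alternatives, 12 were such sign changes. Of the others 2178 lay within the counting interval of the main ratio and 127 outside it, and sign changes of genes whose interval includes 1 are among these. The 12 counted were Qk at 0.083, Pgam1 at −0.12 and Tgfb1 at 0.079 in thinned cells, Hspa1b at 0.89, Hspa8 at 0.047 and Hmgb2 at −0.011 with a limit of 15%, Dnaja1 at 0.099 and Eif2s3y at 0.051 with strata weighted alike, H2-Eb1 at −0.18 and Cd74 at −0.13 without doublets, H2-Eb1 at −0.069 in members with 2000 to 4000 UMIs and Cd74 at −0.21 with a limit of 5%. Of the 89 named genes whose interval excludes 1, 79 never changed sign. Members with 2000 to 4000 UMIs, the filtered calprotectin-low set and the strata at 13% and 18% were chosen after seeing the data. No paired analysis was possible because each condition has 1 library. Depth limits the low B12 values most, since its members hold 1011858 UMIs.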
